A study of Mus musculus with 6 samples.

Results

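In all, 10 genes of the retinoblastoma and p53 pathways were followed by RNA-seq in preSC cells, a mouse line labelled as a precursor of small cell lung cancer (SCLC), with and without short hairpin RNAs against Crebbp. They were the pocket protein genes Rb1, Rbl1 and Rbl2, the p53 gene Trp53, its upstream regulators Cdkn2a and Mdm2, and the p53 target genes Cdkn1a, Ccng1, Btg2 and Bax. The 10 genes were chosen by name, all 10 were found among the 23284 gene names of the count files, and all 10 were among the 13390 genes that passed the filter on low counts. All 6 libraries came from the same line with a pLKO.1-TRC lentiviral vector. Of the 3 controls, replicates 1 and 2 carried the vector without an insert (shEmpty), and replicate 3 carried a hairpin labelled non-silencing (shNS). The 3 shCrebbp libraries carried hairpins 1, 2 and 5, with 1 library each. The labels do not give the Rb1 or Trp53 genotype of the line, and they do not say whether the libraries were separate cultures. The tests therefore measure the spread between these 6 libraries, and among shCrebbp libraries that spread includes the difference between hairpins.

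The retinoblastoma family proteins pRB, p107 (Rbl1) and p130 (Rbl2) bind E2F transcription factors and hold cells in G1 until cyclin-dependent kinases (CDKs) phosphorylate them. The p53 protein is a transcription factor that is kept low by the ubiquitin ligase MDM2, itself a p53 target, and that activates genes for cell cycle arrest and cell death after DNA damage. The protein made from Crebbp, CBP, is known as a coactivator and acetyltransferase of p53. A gene count sums reads over the whole gene, so it shows neither whether Rb1 or Trp53 is intact nor how active the protein is.

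Reads in genes ranged from 13622020 to 19804949 per library, so 1 unit of normalized count (CPM, scaled by the TMM method) stood for 13.6 to 19.6 reads. Crebbp, the targeted gene, stood at 66.2, 69.6 and 69.4 CPM across the controls, against 46.2, 58.3 and 48.9 CPM under hairpins 1, 2 and 5 (log2 fold change -0.42 ± 0.10 SE, edgeR adjusted p = 0.0999; DESeq2 0.0149, and 0.0478 in edgeR without hairpin 2). All 7 neuroendocrine markers summed here were detected. Their summed level was 3961 to 4299 CPM across the controls, against 2895 to 3845 CPM under hairpins, and the groups did not overlap. The lower sum came from Calca (1592 to 2010 and 632 to 1161 CPM): the other 6 markers summed to 2290 to 2380 and 2263 to 2763 CPM. Of the 7 log2 fold changes 4 were positive, with a median of 0.10. Ncam1 (0.68) and Chgb (0.27) lay above all controls, and Calca (-1.04) and Chga (-0.29) lay below all controls. Among all tested genes 11.4% lay above and 11.0% below. Whether these markers bear on the results below was not tested. Summed markers of fibroblasts (7 genes, Col3a1 at 0) stayed between 14.4 and 64.0 CPM, mostly Dcn, those of leukocytes (5 genes) between 3.01 and 5.44 CPM, mostly Cd68, and those of basal and ciliated cells (5 genes) between 1.25 and 4.99 CPM, mostly Foxj1. Markers of endothelium (5 genes) summed to 407 to 439 CPM across the controls, against 164 to 412 CPM under hairpins, nearly all from Vwf. Markers of alveolar and club cells (5 genes) summed to 77.6 to 82.1 and 72.5 to 74.4 CPM, nearly all from Abca3.

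None of the 10 genes passed the adjusted threshold of 0.05 in edgeR, where 1.25% of all tested genes passed. Of the 10, limma-voom also called 0, and DESeq2, which called 5.26% of the genes it tested, called 2. The 2 genes that came closest lay on opposite sides: Ccng1 was higher in each hairpin library than in any control, and Btg2 was lower in each. Both had an unadjusted p under 0.05, which 16.5% of all tested genes also had. Over all tested genes, 11.4% had the 3 hairpin libraries wholly above the controls and 11.0% wholly below, so 1 gene of 10 on either side is near the background. By sign 5 of the 10 fold changes were positive and 5 negative, with a median of -0.05, beside a median of 0.01 over all tested genes.

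**Figure D1:**
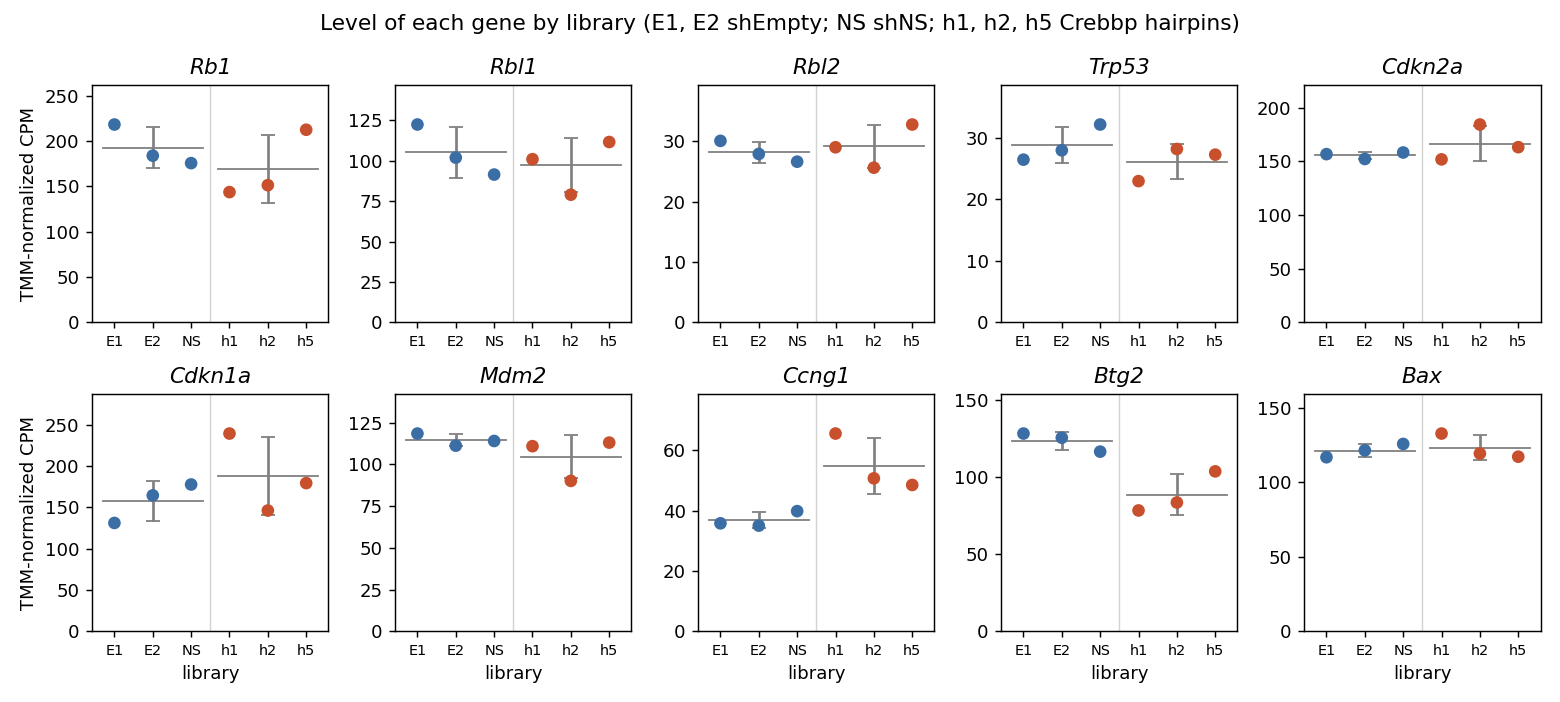
TMM-normalized CPM of the 10 genes in each library (blue, controls E1, E2 and NS; red, Crebbp hairpins h1, h2 and h5; grey line and bar, group mean and SD over 3 libraries). Only Ccng1 and Btg2 have groups that do not overlap; the other 8 genes overlap.

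Rb1, which encodes pRB, stood at 218, 184 and 176 CPM across control replicates 1, 2 and 3, against 144, 151 and 212 CPM under hairpins 1, 2 and 5. The libraries of hairpins 1 and 2 lay below all controls, while that of hairpin 5 lay between the 2 highest controls. The group means were 192 ± 22.6 and 169 ± 37.7 CPM (SD, n = 3 each), with a log2 fold change of -0.19 (95% interval -0.55 to 0.17, edgeR adjusted p = 0.622). Without hairpin 5 the log2 fold change was -0.40 and still did not pass (edgeR adjusted p = 0.125). Without hairpin 1 it was -0.08 (edgeR adjusted p = 0.806). Exons of Rb1 overlap those of Lpar6 and Rcbtb2 on the other strand, and no source used here says that strand was kept, so reads from the shared stretches cannot be assigned.

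Rbl1, the p107 gene and itself a known E2F target, was at 123, 102 and 91.5 CPM across the controls, against 101, 79.1 and 112 CPM under hairpins 1, 2 and 5. The hairpin 2 library was the lowest of the 6, and the other 2 hairpin libraries lay within the control range. The log2 fold change was -0.12 (95% interval -0.46 to 0.23, edgeR adjusted p = 0.773). It was close to 0 without control replicate 1 (0.0049) or without hairpin 2 (0.0085). Rbl2, the p130 gene, which is known to be most abundant in resting cells, was at 30.1, 27.9 and 26.6 CPM across the controls, against 29.0, 25.6 and 32.8 CPM under hairpins. Its groups overlapped, with a log2 fold change of 0.05 (95% interval -0.23 to 0.32, adjusted p = 0.902), and exons of Rbl2 overlap Aktip on the other strand.

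The promoter windows of these genes show where the letters of an E2F motif lie. Windows run from 250 bases before to 50 bases after a RefSeq start, in build GRCm38.p6, and were found for 9 of the 10 genes (all but Rb1), 11 windows in all. The E2F motif was searched as TTTCCCGC, TTTGGCGC or TTTCGCGC on both strands and occurred in 1.84% of 32817 windows. Among the 10 genes it occurred in Rbl1 and in the upstream one of 2 Cdkn2a windows. Both are shown with 20 bases on either side and the motif in capitals, Rbl1 at chr2:157204525-157204572 and Cdkn2a at chr4:89294691-89294738, both on the minus strand.
Rbl1: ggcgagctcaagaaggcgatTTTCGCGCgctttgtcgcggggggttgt
Cdkn2a: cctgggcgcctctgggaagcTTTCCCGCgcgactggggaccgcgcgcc
The Rbl1 match begins 18 bases before the start and the Cdkn2a match 99 bases before it. The cell cycle homology region motif (CHR, TTTGAA), which is bound by complexes that include p130, occurred in 17.9% of windows, among them those of Rbl2 and Bax. A match of letters is a description, not evidence of binding.

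Trp53, the p53 gene, had between 312 and 517 reads per library. It stood at 26.4, 27.9 and 32.1 CPM across the controls, against 22.9, 28.1 and 27.2 CPM under hairpins 1, 2 and 5. The hairpin 1 library was the lowest of the 6, and those of hairpins 2 and 5 lay within the control range. The group means were 28.8 ± 2.95 and 26.1 ± 2.78 CPM, with a log2 fold change of -0.14 (95% interval -0.43 to 0.14, edgeR adjusted p = 0.644). Counting error alone gives a coefficient of variation of 4.40% to 5.66% at these counts, beside 10.3% between controls and 10.7% between hairpin libraries.

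Mdm2, the ubiquitin ligase gene that closes the feedback loop on p53, was at 119, 111 and 114 CPM across the controls, against 111, 90.2 and 113 CPM under hairpins. Hairpins 1 and 2 lay below all controls, hairpin 1 by a small margin, and hairpin 5 lay within the control range. The log2 fold change was -0.13 (95% interval -0.36 to 0.10, edgeR adjusted p = 0.591).

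Cdkn2a, whose locus makes the CDK4 and CDK6 inhibitor p16INK4A and, from a separate start, the MDM2 inhibitor p19ARF, varied little. It stood at 157, 152 and 158 CPM across the controls, against 152, 184 and 163 CPM under hairpins 1, 2 and 5. Hairpins 2 and 5 lay above all controls and hairpin 1 just below them. The log2 fold change was 0.10 (95% interval -0.11 to 0.30, edgeR adjusted p = 0.668). Counts per gene do not separate the INK4A and ARF transcripts. Controls differed by a coefficient of variation of 2.02%, close to the counting error of 1.81% to 2.20%, and hairpin libraries by 9.90%.

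Among the p53 targets, Cdkn1a, which encodes the CDK inhibitor p21, had the most reads and the widest spread between libraries of a group. It stood at 131, 165 and 178 CPM across the controls, against 239, 146 and 179 CPM under hairpins 1, 2 and 5. The hairpin 1 library was the highest of the 6, that of hairpin 2 lay within the control range, and that of hairpin 5 was just above the highest control. The means were 158 ± 24.0 and 188 ± 47.2 CPM, with a log2 fold change of 0.26 (95% interval -0.17 to 0.68, edgeR adjusted p = 0.552). Without hairpin 1 the log2 fold change was 0.04, and without hairpin 2 it was 0.41 (edgeR adjusted p = 0.253).

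Ccng1 encodes cyclin G1, a p53 target known to take part in the control of MDM2 through a phosphatase. It stood at 35.8, 35.1 and 39.9 CPM across the controls, against 65.6, 50.7 and 48.5 CPM under hairpins 1, 2 and 5. Every hairpin library was above every control, hairpin 1 the most. The means were 36.9 ± 2.58 and 54.9 ± 9.26 CPM (SD, n = 3 each). The hairpin mean was 1.49-fold higher, at a log2 fold change of 0.57 ± 0.13 (SE, 95% interval 0.28 to 0.87, edgeR adjusted p = 0.0824). DESeq2, which called 5.26% of the genes it tested, gave Ccng1 an adjusted p of 0.00774. Across the alternatives run the adjusted p lay between 0.00774 and 0.386, and the log2 fold change between 0.43 and 0.65.

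Btg2 encodes an antiproliferative protein of the BTG and TOB family that recruits deadenylases to messenger RNA, and is induced both by p53 and as an immediate early gene. It stood at 128, 125 and 116 CPM across the controls, against 78.3, 83.5 and 104 CPM under hairpins 1, 2 and 5. Every hairpin library was below every control, hairpin 5 the least. The means were 123 ± 6.13 and 88.5 ± 13.4 CPM. The hairpin mean was 1.39-fold lower, at a log2 fold change of -0.48 ± 0.11 (SE, 95% interval -0.74 to -0.22, edgeR adjusted p = 0.0946). Btg2 was called by DESeq2 (adjusted p = 0.00867). It was also called when hairpin 5 was left out of the edgeR fit (-0.62 on the log2 scale, adjusted p = 0.0291), which called 2.87% of all tested genes. Its adjusted p reached 0.385 without control replicate 2.

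Bax, the gene of a pore-forming protein of the BCL2 family that drives mitochondrial cell death, had the narrowest range over the 6 libraries of the 10 (0.18 on the log2 CPM scale). It stood at 117, 122 and 126 CPM across the controls, against 133, 119 and 117 CPM under hairpins 1, 2 and 5. The groups overlapped, with a log2 fold change of 0.02 (95% interval -0.17 to 0.21, edgeR adjusted p = 0.943).

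**Figure D2:**
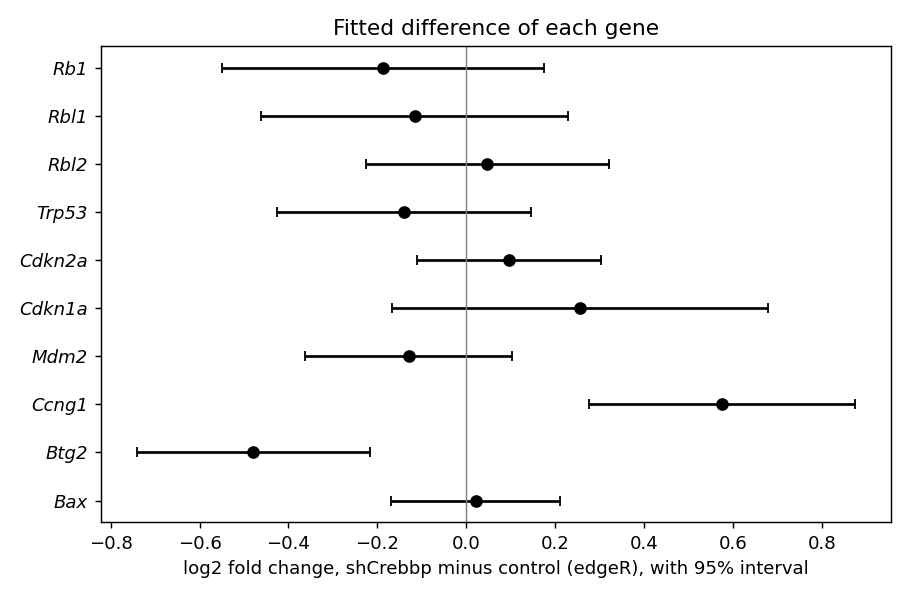
Log2 fold change of each gene between shCrebbp and control libraries (edgeR, all 6 libraries; bars, 95% interval). Before adjustment, the intervals of Ccng1 (0.28 to 0.87) and Btg2 (-0.74 to -0.22) leave out 0, and those of the other 8 genes include it.

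The promoter windows of Ccng1 and Btg2, the genes whose groups did not overlap, are shown whole, 5′ to 3′ on the gene's strand. Capitals mark the cyclic AMP response element (CRE), TGACGTCA on both strands, which is the site bound by CREB, the factor after which CBP is named. It occurred in 1.79% of windows and, among the 10 genes, only in Btg2, where it begins 166 bases before the RefSeq start. The last bases of the Btg2 window were found in 0 GENCODE transcripts of the gene, so this distance rests on the RefSeq start alone. Ccng1 lies at chr11:40755237-40755536 and Btg2 at chr1:134079106-134079405, both on the minus strand.
Ccng1: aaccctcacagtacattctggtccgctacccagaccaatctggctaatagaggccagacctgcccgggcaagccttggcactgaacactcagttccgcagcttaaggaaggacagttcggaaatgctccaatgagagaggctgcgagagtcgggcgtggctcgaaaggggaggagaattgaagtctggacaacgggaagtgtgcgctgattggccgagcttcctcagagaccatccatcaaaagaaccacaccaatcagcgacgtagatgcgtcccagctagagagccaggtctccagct
Btg2: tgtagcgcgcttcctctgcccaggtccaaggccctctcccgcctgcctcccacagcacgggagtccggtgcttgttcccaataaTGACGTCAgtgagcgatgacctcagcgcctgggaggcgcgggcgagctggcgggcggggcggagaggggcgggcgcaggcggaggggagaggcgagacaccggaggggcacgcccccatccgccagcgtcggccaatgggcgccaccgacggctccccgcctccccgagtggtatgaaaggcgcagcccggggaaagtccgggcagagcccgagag
None of the motifs occurred in the Ccng1 window by the rules of the search, which says nothing beyond these 300 bases. It does not show that the window lacks a p53 element, since elements with a changed core were left out (below).

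The p53 response element was searched as its 20-base consensus with both CWWG cores intact and at most 3 other mismatches, and occurred in 0.57% of windows. Among the 9 genes with a window it occurred in Cdkn1a, in the upstream one of 2 windows, and in Trp53. The Trp53 match has 3 mismatches, the most allowed, and the Cdkn1a match has fewer. Both are shown with the element in capitals, Cdkn1a at chr17:29090908-29090967 and Trp53 at chr11:69580264-69580323, both on the plus strand.
Cdkn1a: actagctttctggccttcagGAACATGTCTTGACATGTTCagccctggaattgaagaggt
Trp53: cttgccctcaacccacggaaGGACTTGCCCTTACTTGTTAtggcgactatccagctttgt
The Cdkn1a element begins 51 bases before the start and the Trp53 element 75 bases before it. In the list of other p53 targets, 3 of 30 genes with a window held such an element and 3 held a CRE. The rule of intact cores left out a stretch of the Ccng1 window, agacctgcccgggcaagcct. Its upstream core reads CCTG, and its other bases fit the consensus. Whether p53 binds there was not tested.

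Levels of different genes were compared per length, as RPKM, the CPM divided by the length of the longest coding transcript in kilobases. In controls Cdkn2a was the most abundant of the 10 at 174 ± 3.52 RPKM, followed by Bax at 110 ± 4.06 and Cdkn1a at 75.9 ± 11.5 RPKM (SD, n = 3). Btg2, Rb1 and Mdm2 followed at 44.96 ± 2.24, 41.3 ± 4.85 and 36.4 ± 1.16 RPKM. The control ranges of Btg2 and Rb1 overlapped, and those of Rb1 and Mdm2 all but met (lowest Rb1 library 37.70, highest Mdm2 library 37.69 RPKM). The place of Rb1 among these 3 is therefore not set apart from the spread. Every control of Btg2 was above every control of Mdm2 (lowest Btg2 library 42.44 RPKM). Rbl1 stood at 21.7 ± 3.24, Trp53 at 15.4 ± 1.58, Ccng1 at 10.5 ± 0.734 and Rbl2 at 5.73 ± 0.354 RPKM, with no overlap between neighbours. With hairpins Ccng1 stood at 15.6 ± 2.64 RPKM, beside Trp53 at 14.0 ± 1.49 RPKM, and Btg2 stood at 32.3 ± 4.88 RPKM, close to Mdm2 at 33.3 ± 4.03. With the median in place of the longest transcript, Bax stood at 152 and Cdkn1a at 102 RPKM in controls, and the order of the 10 genes was the same.

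**Figure D3:**
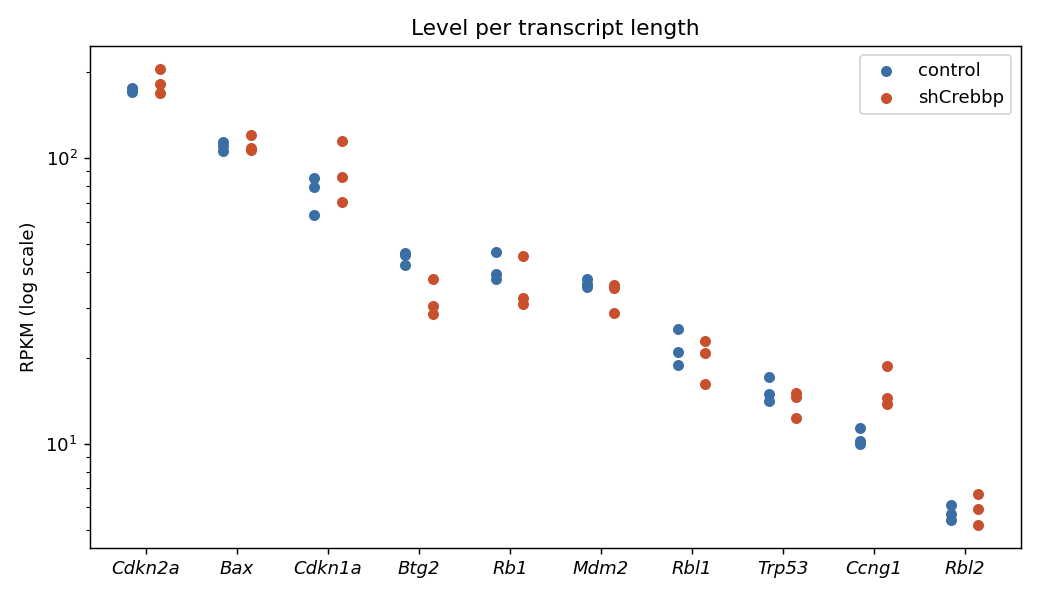
RPKM (log scale) of the 10 genes in each library, ordered by control mean (blue, 3 controls; red, 3 Crebbp hairpins). Control means run from 174 for Cdkn2a to 5.73 for Rbl2, and the hairpin points leave the control range in the same direction only in Ccng1 and Btg2.

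The hairpin libraries differed from each other. With hairpin 1, Ccng1 was 0.83 and Cdkn1a 0.61 above the control mean on the log2 CPM scale, while Btg2 was at -0.65, Rb1 at -0.42 and Trp53 at -0.32. With hairpin 2, Cdkn1a was at -0.10, Mdm2 at -0.35, Rbl1 at -0.40 and Cdkn2a at 0.24. With hairpin 5, Rb1 was at 0.15 and Btg2 at -0.25. With 1 library a hairpin, the difference between hairpins was not tested. The hairpin 1 library had the highest value of the 6 libraries for 3 of the 10 genes (Ccng1, Cdkn1a and Bax). It had the lowest for 4 (Rb1, Trp53, Cdkn2a and Btg2). Among all tested genes it had the highest value in 25.5% and the lowest in 24.6%.

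**Figure D4:**
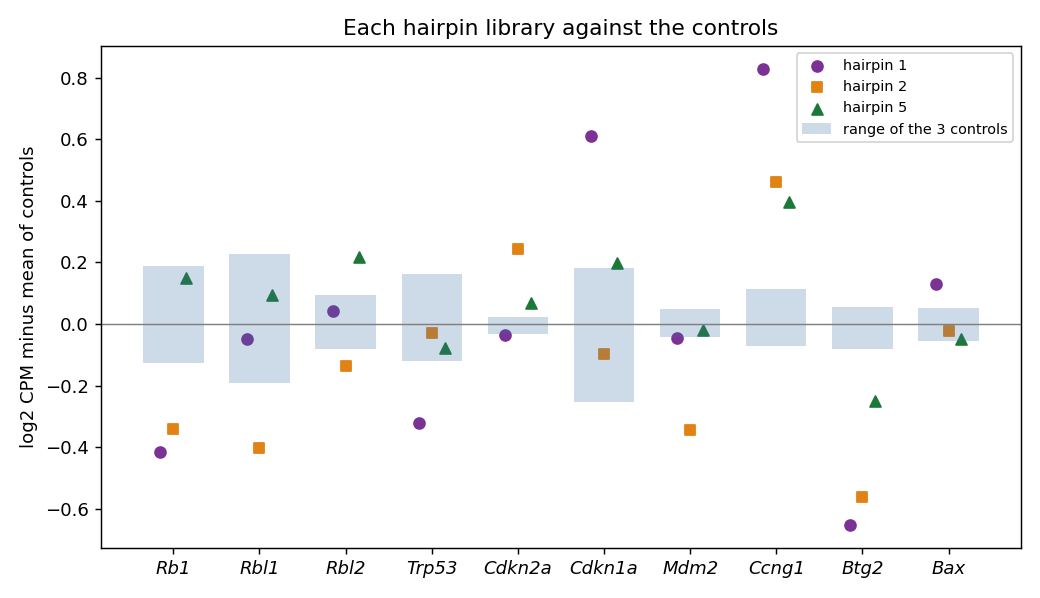
Log2 CPM of each hairpin library minus the mean of the 3 controls (purple, hairpin 1; orange, hairpin 2; green, hairpin 5; blue bands, range of the controls). In Ccng1 and Btg2 all 3 hairpins leave the band on the same side; in Cdkn1a hairpin 1 stands at 0.61 and hairpin 2 at -0.10.

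The kinds of control vector could be compared only by their sizes of difference, since shNS is 1 library against 2 of shEmpty. The fit pooled the spread over all 6 libraries and took shNS to be as variable as the rest. In it, 0 of the 10 genes passed between shNS and shEmpty (edgeR, 0% of all tested genes passed), and 0 of the 10 had an unadjusted p under 0.05; every adjusted p was 0.9996, so this does not show that the vectors are alike. The sizes ran from -0.29 in Rbl1 (shEmpty mean 112, shNS 91.5 CPM) to 0.27 in Cdkn1a (148 and 178 CPM). For Cdkn1a that is as large as the difference of 0.26 between hairpins and controls.

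Other genes of the pathway were read from lists of 138 genes in all, of which 126 passed the filter. In edgeR 0 of the 126 passed the adjusted threshold and 24 had an unadjusted p under 0.05, which 16.5% of all tested genes had. DESeq2 called 7, where it called 5.26% of all genes, and limma-voom 0. The hairpin libraries lay wholly above the controls in 20 of the 126 (15.9%) and wholly below in 15 (11.9%), beside 11.4% and 11.0% of all tested genes.

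Other p53 targets had fold changes of both signs, as Ccng1 and Btg2 did. Of 39 listed genes 35 were tested; the death receptor gene Fas had no read in any library, and Pmaip1, the NOXA gene, had 6 reads in all. The median log2 fold change was 0.03, with 20 positive, 15 negative, 0 called and 10 with an unadjusted p under 0.05 (edgeR), and DESeq2 called 2 lower (Epha2 and Trp53inp1). All hairpin libraries lay above all controls in 6 of the 35 and below them in 4. Over all tested genes the shares were 16.5% with an unadjusted p under 0.05, 5.26% called by DESeq2, 11.4% above and 11.0% below. Closest to the threshold was Epha2, a receptor tyrosine kinase gene, at 6.999, 5.67 and 4.96 CPM across the controls, against 3.09, 1.71 and 1.70 CPM under hairpins (log2 fold change -1.44 ± 0.30, adjusted p = 0.0669). It was called by DESeq2 (adjusted p = 0.00171) and in edgeR with no filter (0.0435) or without hairpin 1 (-1.79, adjusted p = 0.0215), and its adjusted p was 0.308 without control replicate 1. Trp53inp1, a p53-induced nuclear protein gene, stood at 102 ± 16.1 and 71.3 ± 6.95 CPM (log2 fold change -0.51 ± 0.13, adjusted p = 0.09995, DESeq2 0.0135). Ptp4a3, a phosphatase gene named outside the rule, was called in edgeR only without hairpin 5 (-0.45, adjusted p = 0.0435). Among those above the controls, Phlda3 and Perp were named after their values were seen. Phlda3, an AKT inhibitor gene, was at 10.1, 11.8 and 13.5 CPM across the controls, against 25.5, 15.5 and 16.2 CPM under hairpins (edgeR adjusted p = 0.170). Perp, a junction protein gene, was at 1.02, 1.04 and 1.09 CPM, against 2.50, 2.78 and 1.63 CPM (edgeR adjusted p = 0.121). Perp was near the detection limit, with 149 reads over all libraries. The median log2 ratio to controls over the 35 was 0.10 with hairpin 1, where 23 were positive, and -0.0062 and -0.06 with hairpins 2 and 5, where 16 were positive in each.

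No regulator or relative of p53 passed the threshold. Of 21 listed genes 20 were tested (Trp63 had no reads), 0 passed and 0 had an unadjusted p under 0.05 (edgeR; DESeq2 and limma-voom also called 0), with a median log2 fold change of 0.03. The smallest p values were those of Chek2, a DNA damage kinase gene (20.6 ± 0.291 and 17.6 ± 1.94 CPM, adjusted p = 0.392), and Usp10, a p53 deubiquitinase gene (78.9 ± 3.15 and 87.4 ± 9.05 CPM, adjusted p = 0.497). Mdm4, the partner of MDM2, had a log2 fold change of -0.15 (named outside the rule, adjusted p = 0.651).

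Partners of the pocket proteins also stayed below the threshold. Among the 10 E2F and DP genes 0 were called and 0 had an unadjusted p under 0.05 (edgeR; DESeq2 and limma-voom called 0), with 5 positive and 5 negative. E2f3 stood at 45.6 ± 2.09 and 54.8 ± 8.54 CPM (adjusted p = 0.326) and E2f5 at 19.9 ± 1.52 and 16.6 ± 1.99 CPM (adjusted p = 0.392). Among 9 genes of the MuvB core and its DREAM and MYB partners 0 were called in edgeR, DESeq2 or limma-voom. An unadjusted p under 0.05 was found in 2 of the 9, beside 16.5% of all tested genes (edgeR). Mybl2, the B-MYB gene, was at 73.4, 83.0 and 85.3 CPM across the controls, against 104, 97.5 and 90.0 CPM under hairpins, all above the controls (log2 fold change 0.27 ± 0.09, adjusted p = 0.208). Lin9, a MuvB subunit gene, was at 85.3, 79.7 and 77.6 CPM, against 58.4, 53.1 and 80.0 CPM. Its hairpin 5 library lay within the control range (edgeR adjusted p = 0.304). Without hairpin 5 the edgeR adjusted p of Lin9 was 0.0391, in a fit that called 2.87% of all tested genes.

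Upstream of the pocket proteins, genes of G1 cyclins and CDKs did not pass the threshold. Of 9 listed genes 7 were tested: the cyclin genes Ccnd1, Ccnd3, Ccne1 and Ccne2, the kinase genes Cdk2 and Cdk4, and the phosphatase gene Cdc25a. By sign 6 were positive and 1 negative, beside 7127 positive of all 13390 tested genes, with 0 called and 4 with an unadjusted p under 0.05 (edgeR), and a median log2 fold change of 0.16. Hairpin libraries lay above all controls in 4 of the 7 and below in 1, which was Ccnd1 at 3.78 to 4.67 CPM across the controls, against 2.50 to 3.20 CPM under hairpins. The shares over all tested genes were 11.4% above, 11.0% below and 16.5% with an unadjusted p under 0.05. Ccne1, the cyclin E1 gene, stood at 32.7, 35.2 and 44.2 CPM across the controls, against 56.7, 61.5 and 50.7 CPM under hairpins (log2 fold change 0.59 ± 0.13, adjusted p = 0.0812). Ccnd3, the cyclin D3 gene, stood at 14.2, 16.3 and 15.3 CPM, against 24.1, 21.1 and 20.3 CPM (log2 fold change 0.52 ± 0.12, adjusted p = 0.0948). DESeq2, which called 5.26% of all genes, called both (adjusted p = 0.00500 and 0.0246).

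Of the 5 other CDK inhibitor genes 0 passed and 2 had an unadjusted p under 0.05 (edgeR), both above all controls. The shares of all tested genes were 16.5% with an unadjusted p under 0.05 and 11.4% above all controls. DESeq2 called 5.26% of the genes it tested. Cdkn1c, an imprinted gene that encodes p57, stood at 58.3, 60.2 and 63.7 CPM across the controls, against 288, 164 and 100 CPM under hairpins 1, 2 and 5. The hairpin values were far apart, and the lowest was still above the highest control. The log2 fold change was 1.60 ± 0.32 (95% interval 0.85 to 2.34, adjusted p = 0.0629), and it was called by DESeq2 (adjusted p = 0.00880) and when edgeR was run without hairpin 1 (1.12, adjusted p = 0.0301) or hairpin 5 (1.88, adjusted p = 0.0140). Those 2 omissions called 368 and 389 of all tested genes, and edgeR called 0 genes without either shEmpty library. Cdkn1a, the paralogue of Cdkn1c, overlapped the controls, as given above. Cdkn2b, the p15 gene next to Cdkn2a, was at 6.24 ± 0.312 and 8.33 ± 0.459 CPM (adjusted p = 0.251).

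Known repressors of Cdkn2a, mostly Polycomb genes, had 13 tested members with 0 called and 2 with an unadjusted p under 0.05 (edgeR). Hairpin libraries lay above all controls in 4 of the 13 and below in 2. The shares of all tested genes were 16.5% with an unadjusted p under 0.05, 11.4% above and 11.0% below. Tbx2, a T-box factor known to repress ARF, was near the detection limit in controls at 0.460, 1.40 and 1.39 CPM and stood at 9.85, 4.63 and 3.61 CPM under hairpins (log2 fold change 2.50 ± 0.52, adjusted p = 0.0674, DESeq2 0.000178, and 0.0454 in edgeR without hairpin 5). Rnf2, the RING1B gene, stood at 44.2 ± 3.36 and 61.1 ± 10.8 CPM (log2 fold change 0.47 ± 0.14, adjusted p = 0.150, and 0.0239 without hairpin 1). DESeq2 called 5.26% of the genes it tested, and edgeR called 389 genes without hairpin 5 and 368 without hairpin 1. Cdkn2a itself did not pass, with values given above.

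Because Btg2 is also an immediate early gene, such genes were read beside it. Of 13 listed genes 11 were tested and 0 passed, with a median log2 fold change of -0.26 (edgeR). An unadjusted p under 0.05 was found in 2 of the 11, beside 16.5% of all tested genes (edgeR). Hairpin libraries lay below all controls in 5 of the 11 and above in 1, beside 11.0% and 11.4% of all tested genes. Junb, an AP-1 subunit gene, was at 58.7, 60.2 and 59.4 CPM across the controls, against 45.1, 33.6 and 41.1 CPM under hairpins (log2 fold change -0.57 ± 0.12, adjusted p = 0.0622, DESeq2 0.00177). It was also called in edgeR with upper quartile scaling (0.0498), with no filter (0.0407) and without hairpin 1 (0.0264), and its adjusted p was 0.303 without control replicate 2. Fos, its dimer partner, was at 18.1 ± 2.49 and 12.7 ± 2.36 CPM (log2 fold change -0.51 ± 0.18, adjusted p = 0.205). Egr1, named outside the rule, did not follow them, at 195, 202 and 199 CPM across the controls, against 312, 179 and 296 CPM under hairpins (log2 fold change 0.40). Without hairpin 2 it was called higher (0.61, edgeR adjusted p = 0.0232). Whether the values of Btg2 and of these genes share a source was not tested.

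**Figure D5:**
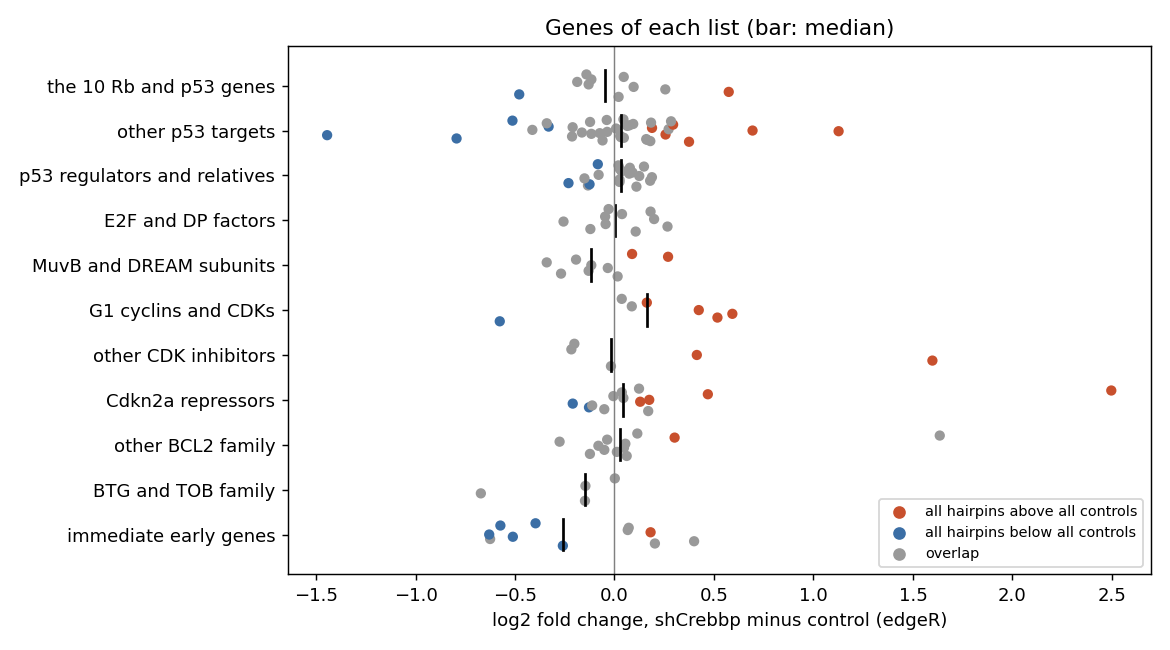
Log2 fold change (shCrebbp minus control, edgeR) of every tested gene in the 10 Rb and p53 genes and in 10 further lists (red, all hairpin libraries above all controls; blue, all below; grey, overlapping; black bar, median of the list). Medians lie between -0.26 for immediate early genes and 0.16 for G1 cyclins and CDKs, and the points farthest out are Tbx2 at 2.50 and Epha2 at -1.44.

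Genes with a profile like the 2 members of widest range, Ccng1 and Cdkn1a, were found by the mean absolute difference of log2 CPM over the 6 libraries, after centring each gene, among 11523 genes whose average log2 CPM was 2 or more. Nearest to Ccng1 were Rab31 (mean difference 0.03), Snx7 (0.05) and Jam3 (0.05). Rab31 stood at 55.1, 57.2 and 61.1 CPM across the controls, against 104, 81.4 and 74.9 CPM under hairpins. Nearest to Cdkn1a were Tanc1 (0.05), Akap12 (0.05) and Ppp1r18 (0.05). Akap12 stood at 28.3, 34.6 and 36.2 CPM across the controls, against 53.6, 29.1 and 39.2 CPM under hairpins. None of the other 9 genes of the group was among these, and the likeness describes 6 libraries only.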

How the data were processed

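Poly(A) RNA from 500 ng of total RNA was sequenced, per the labels' protocols. Each library has 1 deposited file of raw counts by gene symbol, which the authors neither normalized nor pooled. Build mm9, TopHat2 2.0.12, HTSeq 0.6.1 and bcl2fastq 1.8.2 are listed in the submitters' processing notes. For the annotation, strand setting and overlap rule, the sources used here say nothing. HTSeq summary rows (24.8% to 28.9% of counts) were left out.

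Counts of all genes were fitted with edgeR 4.0.16 (R 4.3.3; filterByExpr, TMM, robust quasi-likelihood test, Benjamini-Hochberg adjustment over 13390 genes, threshold 0.05). DESeq2 1.42.0, limma-voom (limma 3.58.1), RLE and upper quartile scaling, no filter, a filter of 1 CPM in 3 libraries, and omission of each library were alternatives. The standard error and 95% interval were derived from the fold change, its F statistic and the fitted degrees of freedom. Log2 CPM used a prior count of 2. The fit was tested on simulated data. Transcript lengths are from GENCODE M21 and promoters from RefSeq, both GRCm38. List symbols absent from the files were matched through RefSeq synonyms.

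The genes and lists were chosen with earlier results of these data known. Named are the 10 genes, Crebbp, up to 4 called genes of each list or the 2 of smallest p where none was called, the most abundant tested gene of each marker list, and the 3 nearest profiles of the 2 genes of widest range. Of the marker genes chosen, 2 are not reported here and were left out of the sums.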

Additional observations from a re-analysis of the deposited data

How the results depend on the processing

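In edgeR with all 6 libraries 0 of the 10 genes were called; DESeq2 called 1 higher (Ccng1) and 1 lower (Btg2), while limma-voom, both other scalings and both other filters called 0. With each library left out in turn the count of higher genes was 0 each time and that of lower genes ranged from 0 to 1, the 1 being Btg2 without hairpin 5. Of 120 comparisons of a gene's fold change with an alternative, 112 kept sign and side of the threshold, 3 passed it, and 5 changed sign near 0. With each library left out in turn, the log2 fold change of Rbl1 ranged from -0.24 to 0.0085 (positive without hairpin 2 and, at 0.0049, without control replicate 1), that of Rbl2 from -0.058 (without hairpin 5) to 0.13, and that of Bax from -0.038 (without hairpin 1; -0.0085 without control replicate 1) to 0.045. Between shNS and shEmpty, 0 genes passed under each scaling, and Mdm2 turned from -0.01 to 0.0022 with upper quartile scaling. Calls over all genes numbered 168 in edgeR, 733 with DESeq2, 0 when either shEmpty library was omitted, 48 when shNS was, and 368, 101 and 389 when hairpins 1, 2 and 5 were; the cause was not tested. No call for a single gene was therefore made in edgeR without either shEmpty library. RPKM moved by more than the control SD with the median transcript length for Cdkn2a (178), Cdkn1a (102) and Bax (152). No paired analysis was possible because the replicate numbers of the hairpin libraries name hairpins and do not pair them with controls. Depth limits Trp53 most, at 312 to 517 reads. The counting errors given assume independent reads, since no molecular identifiers are named. The 95% intervals assume independent libraries, which the labels do not state.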

Other observations

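The BCL2 family beside Bax held no called gene. Of 14 listed genes 12 were tested and 0 were called in edgeR, DESeq2 or limma-voom, with a median log2 fold change of 0.03. An unadjusted p under 0.05 was found in 2 of the 12, beside 16.5% of all tested genes (edgeR). Bok, a BAX relative, stood at 44.0, 39.9 and 43.4 CPM across the controls, against 51.6, 57.3 and 48.2 CPM under hairpins, all above the controls (log2 fold change 0.30 ± 0.10, adjusted p = 0.179). Hrk, a BH3-only death gene, was at 1.79, 3.23 and 4.82 CPM across the controls, against 6.03, 21.2 and 2.99 CPM under hairpins, so that its log2 fold change of 1.63 ± 0.68 (adjusted p = 0.285) came mostly from hairpin 2.

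Relatives of Btg2 overlapped the controls. Of the BTG and TOB family 4 of 5 genes were tested and 0 passed or had an unadjusted p under 0.05 (edgeR; DESeq2 and limma-voom called 0). Btg1, a paralogue, stood at 186 ± 3.23 and 168 ± 24.2 CPM (log2 fold change -0.15 ± 0.11, adjusted p = 0.558), and Btg3 at 1.49 ± 0.359 and 0.925 ± 0.384 CPM (adjusted p = 0.437). Whether the difference of Btg2 exceeds that of its relatives was not tested.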
